A study of Homo sapiens with 6 samples.

Results

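CXCL14 and 9 other chemokine genes made by epithelial cells were followed across 6 RNA sequencing libraries of CAL27 cells. The 10 genes (CXCL14, CXCL1, CXCL2, CXCL3, CXCL8, CXCL10, CXCL11, CXCL16, CX3CL1 and CCL20) were picked by symbol out of 30178 genes in the deposited table. They were chosen on their values in these same libraries: CXCL14 for its higher level in both MB21D2 lines than in the vector line, the others as chemokines of epithelium whose levels were also known. Their differences are therefore given as a description, with no p-value, and the number of them called in the fit over all genes stands only beside the share of all genes called. The gene lists set around the 10 genes were also chosen with earlier results of these data known. Adjusted p-values printed for genes of those lists are therefore not independent tests. CAL27 is an established line from an oral carcinoma, which the labels call adenosquamous. MB21D2 is a protein of the Mab-21 family, related in fold to the DNA sensor cGAS.

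The lines carried MB21D2 with the Q311E substitution (called Q311E below), wild-type MB21D2 (wild type) or an empty vector (vector), with 2 libraries, A and B, in each. All were stable lines of GFP-fused proteins kept in DMEM with serum and the selection drug G418, per the labels. The study set out to compare transcription under the Q311E and the wild-type form. Neither the promoter of the transgene nor whether a line is 1 clone or a pool is stated in the labels. The labels do not say that A and B are separate cultures, so the spread between them, and every p-value below, may be technical only.

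Chemokines are small secreted proteins that guide leukocytes along a gradient by way of G protein-coupled receptors. CXCL1, CXCL2, CXCL3 and CXCL8 act on CXCR2 and draw neutrophils, CXCL10 and CXCL11 act on CXCR3 of activated T and NK cells, and CCL20 acts on CCR6. CXCL16 and CX3CL1 are made as membrane-bound proteins and shed by the proteases ADAM10 and ADAM17. CXCL14 is produced steadily by healthy skin and oral epithelium, is often lost in squamous carcinoma, and has no settled receptor. NF-kB and AP-1 are known to induce the CXCR2 ligands, and interferon acts on CXCL10 and CXCL11 through elements named ISRE.

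Bases before the RefSeq start sites show how these genes differ in the motifs they hold, and RefSeq windows on GRCh38.p14 were at hand for 8 of the 10 (not CXCL16 and CX3CL1). The 250 bases before each start site were searched on both strands for an NF-kB motif (GGAATTTCC), an ISRE motif (GAAANNGAAA) and an AP-1 motif (TGACTCA). The stretches around the matches follow, 5′ to 3′ on the gene's strand, with matched letters in capitals. Positions are counted from the RefSeq start site, and the stretches of CXCL14, CXCL2, CXCL3 and CXCL11 lie within the bounds of their genes as GENCODE 29 draws them.
CXCL14 (chr5:135579066-135579095, minus strand): gagaaatctcagTGAGTCAccgagtggttc
CXCL1 (chr4:73869304-73869333, plus strand): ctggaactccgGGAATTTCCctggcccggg
CXCL2 (chr4:74099254-74099283, minus strand): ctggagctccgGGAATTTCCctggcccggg
CXCL3 (chr4:74038749-74038778, minus strand): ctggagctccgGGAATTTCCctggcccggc
CXCL8 (chr4:73740429-73740505, plus strand): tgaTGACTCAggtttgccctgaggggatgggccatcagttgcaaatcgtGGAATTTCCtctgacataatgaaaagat
CXCL10 (chr4:76023598-76023747, minus strand): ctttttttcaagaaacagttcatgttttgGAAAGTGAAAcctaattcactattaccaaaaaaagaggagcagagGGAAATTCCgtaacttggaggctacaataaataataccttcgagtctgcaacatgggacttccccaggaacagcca
CXCL11 (chr4:76036130-76036159, minus strand): caTGACTCAaagagGGAAATTCCtgtgcca

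The NF-kB motif was present upstream of 6 of the 8 genes, and upstream of 0.413% of 35116 promoters in the RefSeq table. CXCL14 and CCL20 were the 2 without it. The AP-1 motif lay upstream of 3 of the 8 (CXCL14, CXCL8 and CXCL11), against 4.2% of all promoters. The ISRE motif was found for CXCL10 alone among the 8, against 3.02% of all promoters. No 2 matches overlapped in any of these genes. A match in letters is not a binding site, and the libraries hold no measurement of binding. Each motif was searched only as spelled above, so a gene without a match may still hold a variant of the element. Known NF-kB targets are among the 8 genes, and the matches of CXCL1, CXCL2 and CXCL3 sit in near copies of the same stretch. The shares over all promoters are therefore set beside the counts as a description and no test of enrichment. The stretches of CXCL1, CXCL2 and CXCL3 are nearly the same text, with 29 of 30 bases shared between CXCL1 and CXCL2, 28 between CXCL1 and CXCL3 and 29 between CXCL2 and CXCL3. Upstream CpG dinucleotides numbered 25 for CXCL14, 18 for CXCL1, 20 for CXCL2, 19 for CXCL3, 4 for CXCL8, 3 for CXCL10, 0 for CXCL11 and 3 for CCL20, against a median of 11 over all promoters.

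**Figure D1:**
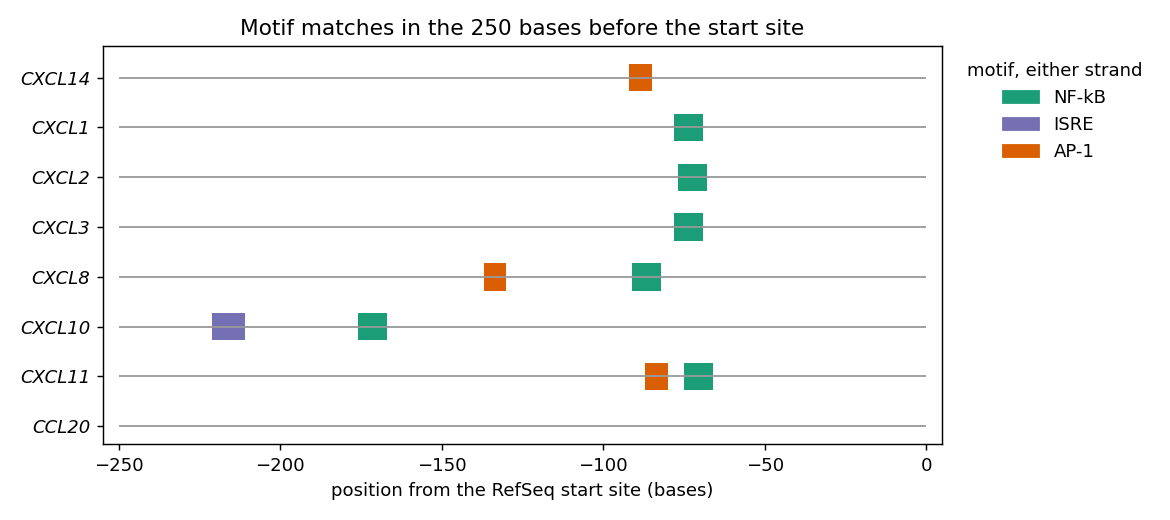
Motif matches in the 250 bases before the RefSeq start site of 8 chemokine genes (x axis: position in bases; colour: motif; a box spans the match on either strand). The NF-kB motif sits within 100 bases of the start for CXCL1, CXCL2, CXCL3, CXCL8 and CXCL11 and farther out for CXCL10, while the line of CXCL14 holds an AP-1 match only and that of CCL20 none.

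Levels are FPKM, in which reads are divided by gene length and by the reads of the library. Library totals behind them lay between 20645410 and 24147306 reads. Differences were fitted with limma on log2(FPKM + 1) over 11481 genes with a mean of at least 1 FPKM, a scale that understates changes of low genes, and a gene was called at a Benjamini-Hochberg adjusted p under 0.05. Libraries A and B stood farther apart in Q311E than elsewhere. The SD over genes of their log2 difference was 0.436 in Q311E, 0.145 in wild type and 0.192 in vector. The fit pools the spread of the 3 groups, so the 3 differences of a gene share the same SE. For genes whose Q311E libraries part widely, such as CXCL1 and CCL20, that SE reflects mostly Q311E, also for wild type minus vector. MB21D2 itself stood at 32.8 and 21.2 FPKM in Q311E, 104 and 106 FPKM in wild type and 8.31 and 7.15 FPKM in vector, so the lines differed in MB21D2 level as well as in form. All 10 squamous epithelial markers exceeded 1 FPKM in every library. Leukocyte markers summed to 5.23 and 19.0 FPKM in Q311E, 2.69 to 2.94 in wild type and 2.17 to 3.53 in vector, for 6 of 12 in the table, nearly all of it CD14, with PTPRC at 0 in Q311E and vector. Endothelial markers (7 of 7) summed to between 22.8 and 35.7 FPKM in Q311E, 15.6 and 16.0 in wild type and 20.2 and 21.6 in vector, nearly all CDH5. Fibroblast markers (8 of 8) summed to between 3.11 and 3.86 FPKM in Q311E, 2.56 and 2.85 in wild type and 3.01 and 3.63 in vector. The part of these markers in the results was not tested.

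CXCL14 (ENSG00000145824, chr5:135570679-135579279 on GRCh38, minus strand) had 34.7 and 38.4 FPKM in Q311E, 11.17 and 11.02 FPKM in wild type, and 0.377 and 0.441 FPKM in vector. The 3 groups did not overlap, and the order was the same in each library pair: Q311E above wild type, and both far above vector. In whole reads recovered from the FPKM values, these levels were 1459 and 1640 in Q311E, 503 and 464 in wild type, and 18 and 18 in vector. An 18-read count has an exact Poisson interval of 10.7 to 28.4 reads at 95% confidence, which covers counting error only. Such an interval lies above 0 for any count above 0, so it does not test whether the low vector level differed from 0.

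Mean CXCL14 was 36.6 ± 2.61 FPKM in Q311E, 11.1 ± 0.106 in wild type and 0.409 ± 0.0453 in vector (SD, n = 2 each). The ratio of means was 89.3 for Q311E over vector, 27.1 for wild type over vector and 3.30 for Q311E over wild type. On the log2(FPKM + 1) scale the differences were 4.73 ± 0.09, 3.10 ± 0.09 and 1.63 ± 0.09 (SE). Wild type held the most MB21D2 RNA and Q311E the most CXCL14 RNA, while vector held the least of both. The form of MB21D2, its level and other differences between the lines cannot be told apart here. Among the 10 genes by mean FPKM, CXCL14 was the fifth in Q311E, the sixth in wild type and the last in vector. In bulk RNA such as this, fewer cells of a kind and less RNA per cell cannot be told apart.

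**Figure D2:**
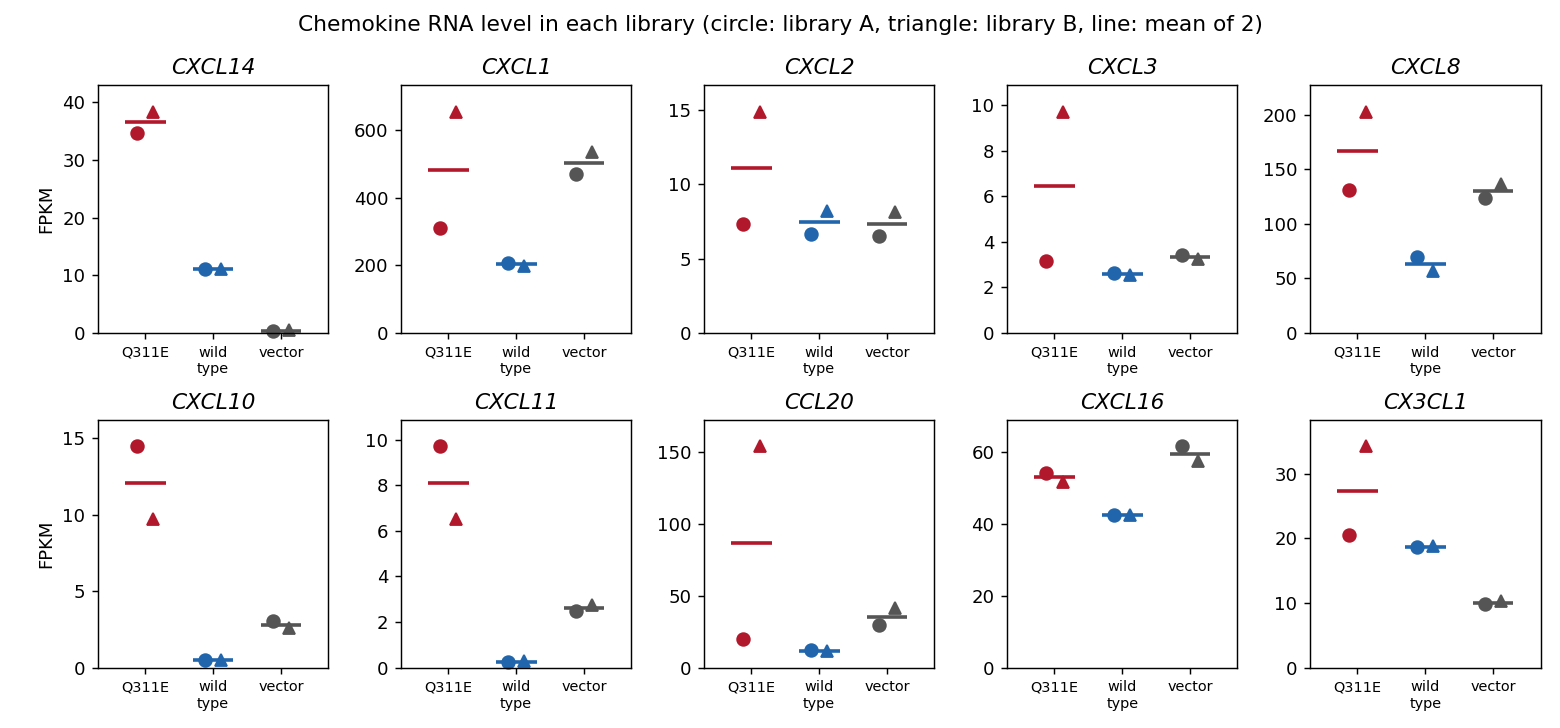
FPKM of the 10 chemokine genes in each library (y axis from 0, its scale set per gene; circles are library A, triangles library B, lines the mean of 2 libraries). CXCL14 steps down across Q311E, wild type and vector, CXCL10 and CXCL11 are lowest in wild type, and the Q311E libraries part widely for CXCL1, CXCL2, CXCL3 and CCL20.

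The 4 neutrophil attractants lie together on chromosome 4. CXCL1 (chr4:73869393-73871242), the most abundant of the 10 genes in every library, had 309.8 and 654 FPKM in Q311E, 208 and 197 FPKM in wild type and 469.9 and 535 FPKM in vector. Wild type was lower than both other groups, while the Q311E libraries fell on either side of the vector pair. The log2 differences were 1.15 for Q311E minus wild type, −0.16 for Q311E minus vector and −1.30 for wild type minus vector, each ± 0.34 (SE).

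CXCL8 (chr4:73740506-73743716), which codes for interleukin 8, had 132 and 203 FPKM in Q311E, 69.6 and 56.8 FPKM in wild type and 124 and 136 FPKM in vector. It shared the low level in wild type, and Q311E overlapped vector. The log2 differences were 1.36 for Q311E minus wild type, 0.33 for Q311E minus vector and −1.04 for wild type minus vector, each ± 0.22 (SE). CXCL1 exceeded CXCL8 by 2.35 and 3.22 times in Q311E, 2.99 and 3.47 times in wild type and 3.78 and 3.92 times in vector.

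CXCL2 (chr4:74097035-74099293) had 7.33 and 14.9 FPKM in Q311E, 6.68 and 8.22 FPKM in wild type and 6.52 and 8.14 FPKM in vector, with overlap in each of the 3 pairs of groups. CXCL3 (chr4:74036589-74038807) had 3.15 and 9.71 FPKM in Q311E, 2.65 and 2.54 FPKM in wild type and 3.43 and 3.25 FPKM in vector. For both genes library B of Q311E stood above all other libraries. Without it the log2 difference of CXCL2 between Q311E and wild type went to −0.01, against 0.45 ± 0.31 (SE) with it. For CXCL3 the log2 difference between Q311E and vector was −0.06 without that library and 0.62 ± 0.42 (SE) with it. For CXCL1 it was the other library that turned the direction: without Q311E A the log2 difference from vector was 0.38. Without Q311E B, the log2 difference from wild type was 0.61 for CXCL1 and 0.21 for CXCL3 (0.89 ± 0.42 SE with it). The log2 difference from vector was then 0.02 for CXCL8 and 0.01 for CXCL2 (0.47 ± 0.31 SE with it). CXCL1, CXCL2 and CXCL3 are close paralogs, and how the authors assigned reads shared between them is not given in the sources used here, so their split is uncertain.

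CXCL10 (chr4:76021117-76023497) and CXCL11 (chr4:76033682-76041415) are neighbouring genes, both known as interferon-induced. CXCL10 had 14.5 and 9.72 FPKM in Q311E, 0.485 and 0.519 FPKM in wild type and 3.03 and 2.60 FPKM in vector. The recovered reads were 362 and 247 in Q311E, 13 and 13 in wild type, and 86 and 63 in vector. The 3 groups did not overlap, and vector lay between Q311E and wild type. The ratio of means was 24.1 for Q311E over wild type, 4.30 for Q311E over vector and 0.178 for wild type over vector. The log2 differences were 3.10, 1.76 and −1.34 in the same order, each ± 0.19 (SE).

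CXCL11 had 9.70 and 6.50 FPKM in Q311E, 0.253 and 0.295 FPKM in wild type and 2.50 and 2.77 FPKM in vector. Its order of groups was that of CXCL10, again with no overlap. The ratio of means was 29.6 for Q311E over wild type, 3.08 for Q311E over vector and 0.104 for wild type over vector. The log2 differences were 2.81, 1.30 and −1.51 in that order, each ± 0.18 (SE). Because CXCL10 and CXCL11 are low in wild type, their differences from wild type depend on the pseudocount: with 0.1 in place of 1, Q311E minus wild type was 4.31 for CXCL10 and 4.43 for CXCL11, and wild type minus vector was −2.27 and −2.87. The wild-type levels rest on 11 and 12 reads, with exact Poisson intervals of 5.49 to 19.7 and 6.20 to 21.0 reads, and ratios to them are correspondingly loose. The FPKM ratio of CXCL10 to CXCL11 was 1.492 and 1.497 in Q311E, 1.92 and 1.76 in wild type, and 1.21 and 0.939 in vector. By FPKM, CXCL10 was thus the higher of the 2 in all libraries but vector B. By recovered reads, CXCL11 was the higher in Q311E (394 and 268) and in vector (115 and 109). Lengths behind these were 1175 bases for CXCL10, which was fitted, and 1908 for CXCL11. In Q311E both genes were higher in library A, whereas CXCL1, CXCL2, CXCL3, CXCL8 and CCL20 were higher in library B.

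CCL20 (chr2:227805739-227817564), the CCR6 ligand, had 19.8 and 154 FPKM in Q311E, 12.3 and 11.7 FPKM in wild type and 30.01 and 41.33 FPKM in vector. Wild type was below both other groups, and the Q311E libraries lay on opposite sides of the vector pair. Library B of Q311E held 7.81 times the level of library A. Of the 11481 tested genes, 10 (0.0871%) were at least as far apart between these 2 libraries on the log2 scale, CCL20 included. The log2 difference between Q311E and vector was 0.65 ± 0.89 (SE), and −0.80 without Q311E B. Between Q311E and wild type it was 2.12 ± 0.89, and 0.67 without that library.

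CXCL16 (chr17:4733526-4739922), the membrane-bound CXCR6 ligand, had 54.0 and 51.7 FPKM in Q311E, 42.4 and 42.4 FPKM in wild type and 61.5 and 57.3 FPKM in vector. The groups did not overlap, yet the log2 differences were small at 0.31 for Q311E minus wild type, −0.16 for Q311E minus vector and −0.48 for wild type minus vector, each ± 0.08 (SE).

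CX3CL1 (chr16:57372458-57385048), the CX3CR1 ligand also named fractalkine, had 20.5 and 34.2 FPKM in Q311E, 18.6 and 18.8 FPKM in wild type and 9.84 and 10.3 FPKM in vector. Like CXCL14 it was higher in both MB21D2 lines than in vector, without overlap. The log2 differences were 1.32 for Q311E minus vector and 0.84 for wild type minus vector, each ± 0.23 (SE). Between Q311E and wild type the log2 difference was 0.48 ± 0.23, and 0.12 without Q311E B.

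**Figure D3:**
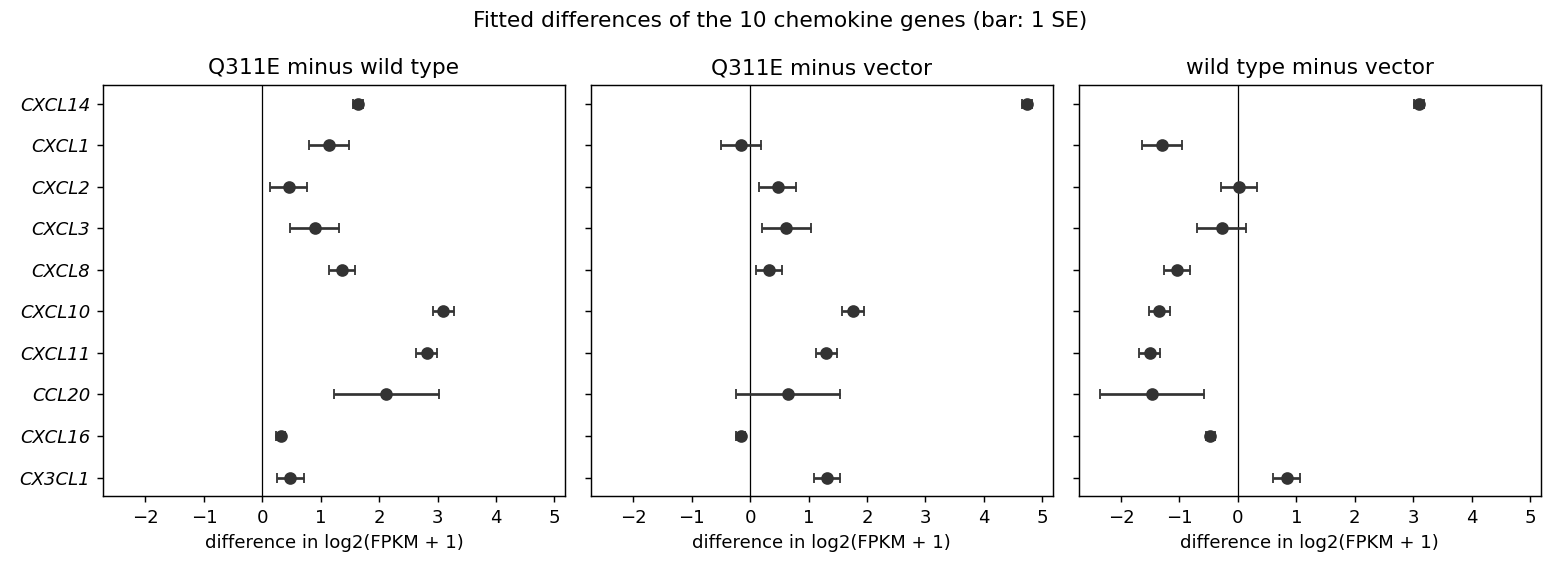
Fitted differences of the 10 chemokine genes in log2(FPKM + 1), with bars of 1 SE, for Q311E minus wild type, Q311E minus vector and wild type minus vector. CXCL14 lies to the right of 0 in all 3 panels, CXCL10 and CXCL11 lie right of 0 in the first 2 and left of it in the last, and CCL20 has the widest bars.

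The filter on low values took the mean over all 6 libraries, so a gene could pass through the groups where it was high. Group means under 1 FPKM were those of CXCL14 in vector (0.409) and of CXCL10 and CXCL11 in wild type (0.502 and 0.274). STING1, IL1RN and CCRL2, given below, had wild-type means of 0.541, 0.384 and 0.800 FPKM. All 10 chemokine genes passed. Between Q311E and wild type, 5 of them were called, all higher (CXCL14, CXCL8, CXCL10, CXCL11 and CXCL16), where 17.5% of all tested genes were called higher and 10.1% lower. Between Q311E and vector, 4 were called, all higher (CXCL14, CXCL10, CXCL11 and CX3CL1), against 8.67% and 9.28% of all tested genes. Between wild type and vector, 1 was called higher (CXCL14) and 4 lower (CXCL8, CXCL10, CXCL11 and CXCL16), against 3.54% and 8.76%. Since the genes were picked on these values, nothing is read from these counts. Their median log2 differences were 1.26, 0.63 and −0.76 in the 3 comparisons, beside 0.05, 0.00 and −0.05 over all tested genes. The split of calls over all genes depends on scaling: under median scaling, calls higher and lower numbered 1766 and 1609 between Q311E and wild type and 511 and 736 between wild type and vector, against 2004 and 1158, and 406 and 1006, as reported. Under quantile normalization they numbered 1331 and 1644, and 490 and 626. The 3 comparisons share libraries, so they are set side by side and not correlated.

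Other chemokine genes were mostly silent in these cells. Of 38 listed, 23 were in the table, and 19 of these stayed under 1 FPKM in every library. The exception in level was CCL2, the CCR2 ligand that draws monocytes, which made up 49.7% to 60.0% of the summed FPKM of the 33 chemokine genes in each library. CCL2 had 922 and 1174 FPKM in Q311E, 398 and 397 FPKM in wild type and 912 and 1086 FPKM in vector. It was higher in Q311E than in wild type (log2 difference 1.39 ± 0.16 SE, limma adjusted p = 0.00776) and lower in wild type than in vector (−1.32 ± 0.16, limma adjusted p = 0.0141). CCL28, a mucosal chemokine that acts on CCR10, had 4.99 and 6.87 FPKM in Q311E, 1.44 and 1.45 FPKM in wild type and 4.60 and 4.93 FPKM in vector. It too rose in Q311E over wild type (1.49 ± 0.15, limma adjusted p = 0.00523) and fell in wild type against vector (−1.23 ± 0.15, limma adjusted p = 0.0123). These were the 2 other chemokines that could be tested. Between Q311E and vector neither was called by limma, and neither was at an unadjusted p under 0.05 or called by limma-voom on recovered reads.

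Receptors for these chemokines were near or at the floor, as 13 of the 15 in the table (of 23 listed) stayed under 1 FPKM in every library. CXCR2, the receptor of the neutrophil attractants, is also named after its values were seen: it had 0.190 and 0.259 FPKM in Q311E, 0.0273 and 0.0584 FPKM in wild type and 0.283 and 0.256 FPKM in vector. The only receptor tested was CCRL2, an atypical receptor that binds chemerin without signalling. CCRL2 had 6.71 and 3.96 FPKM in Q311E, 0.880 and 0.721 FPKM in wild type and 1.52 and 1.77 FPKM in vector. It was higher in Q311E than in wild type (1.78 ± 0.22, limma adjusted p = 0.00816) and than in vector (1.23 ± 0.22, limma adjusted p = 0.0219). ACKR3, a scavenger of CXCL11 named here after its values were seen, was under the filter, at 0.272 and 1.03 FPKM in Q311E, 0.0424 and 0.0680 FPKM in wild type and 2.14 and 2.13 FPKM in vector.

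Of 5 tested genes that process chemokines, 1 was called, as higher in Q311E than in wild type and also than in vector. That gene was RHBDF2, whose product iRhom2 brings ADAM17 to the cell surface. RHBDF2 had 16.1 and 18.8 FPKM in Q311E, 9.66 and 8.85 FPKM in wild type and 11.03 and 12.38 FPKM in vector, with log2 differences of 0.85 ± 0.11 over wild type (limma adjusted p = 0.00897) and 0.54 ± 0.11 over vector (limma adjusted p = 0.0299). None of the 5 was called between wild type and vector by limma, although 2 were at an unadjusted p under 0.05, and limma-voom called 0. The protease FURIN, the most abundant of them, differed there by 0.23 ± 0.07 (limma adjusted p = 0.0983). The median log2 differences of the 5 were 0.28, 0.17 and −0.14 in the 3 comparisons. Of all tested genes, limma called 17.5% higher in Q311E than in wild type and 8.67% higher than in vector. Between wild type and vector it called 3.54% higher and 8.76% lower.

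IL1A and IL1B had the largest called differences among the inducers of chemokines, both between Q311E and wild type and between wild type and vector. Of 21 tested cytokines, receptors and adaptors that induce chemokines, 9 were higher and 1 lower in Q311E than in wild type, 5 higher and 1 lower in Q311E than in vector, and 3 lower, with the other 18 not called, in wild type than in vector. The list's median log2 differences were 0.43 for Q311E minus wild type, 0.21 for Q311E minus vector and −0.04 for wild type minus vector, beside 0.05, 0.00 and −0.05 over all tested genes. Shares called over all tested genes were 17.5% higher and 10.1% lower, 8.67% and 9.28%, and 3.54% and 8.76% in these comparisons. IL1B had 46.2 and 71.7 FPKM in Q311E, 10.5 and 10.0 FPKM in wild type and 70.7 and 81.8 FPKM in vector. It was higher in Q311E than in wild type by 2.38 ± 0.21 (limma adjusted p = 0.00427) and lower in wild type than in vector by 2.78 ± 0.21 on the log2 scale (limma adjusted p = 0.00604). IL1A, the other agonist of the same receptor, had 39.4 and 89.9 FPKM in Q311E, 9.85 and 7.99 FPKM in wild type and 114 and 128 FPKM in vector. Its log2 differences were 2.62 ± 0.37 for Q311E minus wild type (limma adjusted p = 0.0111) and −3.62 ± 0.37 for wild type minus vector (limma adjusted p = 0.00965). The antagonist IL1RN took the same course, with 1.34 ± 0.16 for Q311E minus wild type (limma adjusted p = 0.00816) and −1.27 ± 0.16 for wild type minus vector (limma adjusted p = 0.0149). Against vector, the receptor IL1R1 (0.78 ± 0.11, limma adjusted p = 0.0134) and the adaptors TRAF6 (0.64 ± 0.08, limma adjusted p = 0.00961) and MYD88 (0.73 ± 0.13, limma adjusted p = 0.0237) were higher in Q311E.

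Of 18 tested NF-kB subunits, kinases and feedback genes, 2 were higher in Q311E than in wild type with the other 16 not called, 3 were higher in Q311E than in vector with the other 15 not called, and 1 was higher and 1 lower in wild type than in vector. Over all tested genes the shares called were 17.5% higher and 10.1% lower, 8.67% higher and 9.28% lower, and 3.54% higher and 8.76% lower in the same comparisons. The list's median log2 differences in the 3 comparisons were 0.12, 0.11 and 0.05. BIRC3, an NF-kB target that ubiquitinates signalling proteins, had 21.2 and 26.8 FPKM in Q311E, 14.8 and 13.6 FPKM in wild type and 14.9 and 14.7 FPKM in vector. It was higher in Q311E than in wild type by 0.71 ± 0.12 (limma adjusted p = 0.0167) and than in vector by 0.66 ± 0.12 (limma adjusted p = 0.0249). TNIP1, an inhibitor of NF-kB signalling, was lower in wild type than in either other group, at 66.6 and 63.9 FPKM in Q311E, 43.6 and 44.8 FPKM in wild type and 62.5 and 66.4 FPKM in vector. Its log2 difference was 0.55 ± 0.07 for Q311E minus wild type (limma adjusted p = 0.00989) and −0.54 ± 0.07 for wild type minus vector (limma adjusted p = 0.0174).

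Several interferon signalling genes were higher in Q311E. Of 14 tested, 7 were called higher than in wild type and 4 higher than in vector, and the others were not called. Over all tested genes the shares called higher were 17.5% and 8.67%. The list's medians were 0.46 and 0.28 in these comparisons. STAT2, a subunit of the factor that binds ISRE elements, had 26.9 and 28.3 FPKM in Q311E, 7.89 and 8.13 FPKM in wild type and 9.53 and 10.7 FPKM in vector. Its log2 differences were 1.67 ± 0.08 for Q311E minus wild type (limma adjusted p = 0.00164) and 1.37 ± 0.08 for Q311E minus vector (limma adjusted p = 0.00349). IRF7, which drives type I interferon genes, had 16.9 and 8.89 FPKM in Q311E, 3.20 and 3.30 FPKM in wild type and 3.15 and 3.41 FPKM in vector. Like CXCL10 and CXCL11 it stood higher in library A of Q311E. It was higher in Q311E than in wild type by 1.64 ± 0.27 (limma adjusted p = 0.0153) and than in vector by 1.64 ± 0.27 (limma adjusted p = 0.0183). Between wild type and vector, where 8.76% of all tested genes were called lower, 2 of the 14 were lower and 12 not called. The list median was −0.11. The 2 were STING1, the adaptor of cytosolic DNA sensing (−1.67 ± 0.26, limma adjusted p = 0.0211), and IRF3, a factor that acts below it (−0.41 ± 0.09, limma adjusted p = 0.0442). The IRF3 call was lost under median scaling (adjusted p = 0.0736), quantile normalization (0.0851) and TPM scaling (0.0665). STING1 had 1.86 and 3.70 FPKM in Q311E, 0.457 and 0.626 FPKM in wild type and 3.32 and 4.58 FPKM in vector. It was higher in Q311E than in wild type by 1.25 ± 0.26 (limma adjusted p = 0.0257).

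Proteins that bind AU-rich elements set the lifetime of many chemokine mRNAs. Of 7 tested, 4 were lower in Q311E than in wild type and 3 not called, 1 was higher and 1 lower in Q311E than in vector, and 2 were higher in wild type than in vector and 5 not called. The list's medians were −0.35, −0.16 and 0.19. Shares of all tested genes called were 17.5% higher and 10.1% lower, 8.67% and 9.28%, and 3.54% and 8.76% in the same order. HNRNPD (AUF1) had 37.0 and 36.0 FPKM in Q311E, 52.9 and 54.6 FPKM in wild type and 49.5 and 49.9 FPKM in vector. It was lower in Q311E than in wild type by 0.55 ± 0.07 on the log2 scale (limma adjusted p = 0.00858). ZFP36L2, which promotes decay, had 9.59 and 8.64 FPKM in Q311E, 15.9 and 15.4 FPKM in wild type and 10.6 and 9.43 FPKM in vector. Its log2 difference was −0.72 ± 0.09 for Q311E minus wild type (limma adjusted p = 0.00897) and 0.60 ± 0.09 for wild type minus vector (limma adjusted p = 0.0206). ZFP36L1 was higher than in vector in Q311E (0.35 ± 0.07, limma adjusted p = 0.0302) and in wild type (0.40 ± 0.07, limma adjusted p = 0.0293). HNRNPD was lower in Q311E than in vector (−0.44 ± 0.07, limma adjusted p = 0.0165). These calls against vector of ZFP36L1 and HNRNPD were lost under TPM scaling (adjusted p = 0.0787, 0.06 and 0.0529).

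EGF receptor signalling through ERK and promoter methylation are both known to hold CXCL14 down in epithelial cells. Of 11 tested genes of these pathways, 1 was called between Q311E and wild type (UHRF1, lower in Q311E) and 1 between wild type and vector (DUSP6, higher in wild type). Between Q311E and vector limma called 0 of the 11 (4 at an unadjusted p under 0.05, 0 by limma-voom). The list's medians were −0.16 for Q311E minus wild type, 0.17 for Q311E minus vector and 0.44 for wild type minus vector. Shares of all tested genes called were 17.5% higher and 10.1% lower, 8.67% and 9.28%, and 3.54% and 8.76% in that order. EGFR had 76.3 and 70.9 FPKM in Q311E, 71.4 and 76.3 FPKM in wild type and 77.0 and 63.6 FPKM in vector, with overlap among all groups. UHRF1, which recruits the maintenance methyltransferase, had 40.5 and 23.7 FPKM in Q311E, 63.6 and 59.6 FPKM in wild type and 48.4 and 39.8 FPKM in vector (−0.97 ± 0.25 for Q311E minus wild type, limma adjusted p = 0.0417, and 0.0582 under TPM scaling). DUSP6, an ERK phosphatase induced by ERK itself, was higher in wild type than in vector by 0.98 ± 0.14 (limma adjusted p = 0.0176), at 2.58 and 3.56 FPKM in Q311E, 4.50 and 4.54 FPKM in wild type and 1.92 and 1.68 FPKM in vector.

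Over all 8 lists, 79 genes were tested. Of these 22 were higher and 6 lower between Q311E and wild type, 15 and 2 between Q311E and vector, and 4 and 8 between wild type and vector. The median log2 differences were 0.24, 0.17 and 0.00, beside 0.05, 0.00 and −0.05 over all tested genes. Shares called over all tested genes were 17.5% higher and 10.1% lower, 8.67% and 9.28%, and 3.54% and 8.76%. Leaving out 1 library of wild type or vector ended calls: limma called 0 genes between Q311E and wild type without wild type A or without wild type B, though 2878 and 2794 had an unadjusted p under 0.05, and 3 each between Q311E and vector without vector A or vector B. Between wild type and vector, 7 to 11 genes were called when any 1 of these 4 libraries was left out. With no filter on low values, 6 of the 20 named calls between Q311E and wild type were lost (BIRC3, IRF7, KHSRP, STING1, TRAF6 and UHRF1, adjusted p 0.0503 to 0.115). In the same way 8 of 13 were lost between Q311E and vector (adjusted p 0.0535 to 0.0725, IL1R1, TRAF6, STAT2, HNRNPD and ZFP36L1 excepted) and 8 of 12 between wild type and vector (adjusted p 0.0577 to 0.116, CCL28, IL1A, IL1B and TNIP1 excepted).

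**Figure D4:**
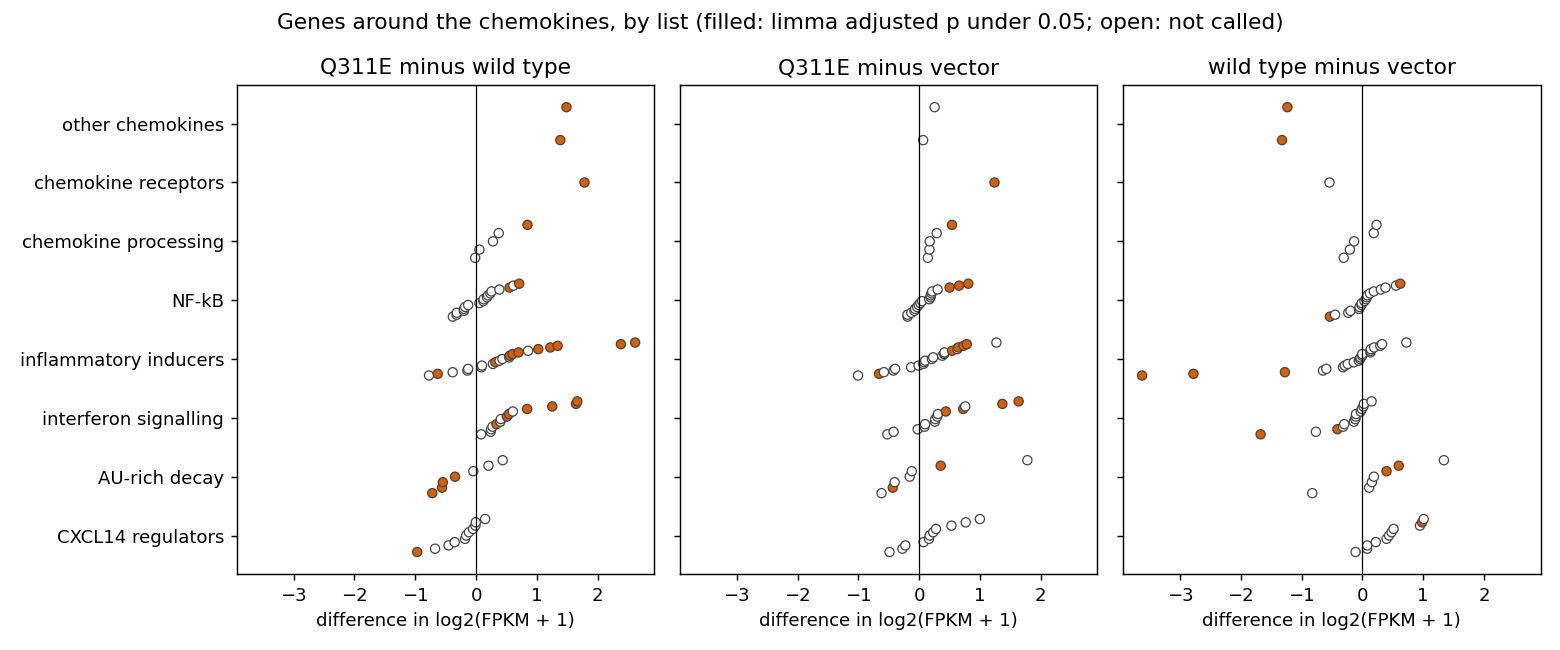
Fitted differences in log2(FPKM + 1) of each tested gene of 8 lists around the chemokines, for Q311E minus wild type, Q311E minus vector and wild type minus vector (filled points: limma adjusted p under 0.05; open points: not called). Called interferon signalling genes lie right of 0 in the first 2 panels, and IL1A and IL1B are the far points of the inducer row in the first and last panels.

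The genes whose levels ran most like those of CXCL14 across the 6 libraries were also sought. Likeness was the root mean square difference in log2(FPKM + 1) after centring each gene on its mean, for which CXCL14's own spread was 1.96. The 5 nearest were MT-TN, a mitochondrial tRNA gene (0.660), TNNI2, a troponin gene (0.783), the mucin gene MUC6 (0.788), and FOSB (0.861) and FOS (0.868), which code for AP-1 subunits. Their Pearson r with CXCL14 was 0.97, 0.96, 0.96, 0.91 and 0.91, over 6 libraries of 1 cell line and much the same depth. FOS had 58.3 and 166.6 FPKM in Q311E, 87.4 and 81.4 FPKM in wild type and 8.16 and 15.2 FPKM in vector, low in vector like CXCL14 but with Q311E on both sides of wild type. MUC6 had 5.34 and 12.2 FPKM in Q311E, 1.75 and 2.38 FPKM in wild type and 0.00982 and 0.0517 FPKM in vector, the same order of groups as CXCL14. Of the 9 other chemokine genes, CX3CL1 came nearest, at rank 73 with a root mean square difference of 1.43.

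Genes beside CXCL14 on chromosome 5 had smaller differences between the groups than CXCL14. Since CXCL14 was picked for its difference, this says nothing particular of the locus. Over the 5 tested genes on each side, a window set after the values were seen, log2 differences ran from −0.58 to 0.15 between Q311E and wild type, from −0.79 to 0.30 between Q311E and vector and from −0.55 to 0.24 between wild type and vector. Their medians were −0.10, −0.08 and −0.03, and 2, 3 and 1 of the 10 were called lower by limma, with the others not called. Of all tested genes, 10.1%, 9.28% and 8.76% were called lower. Around CXCL10 and CXCL11 on chromosome 4, the 10 tested neighbours had medians of 0.16, 0.08 and −0.11 in the same comparisons. In Q311E, 17.5% of all tested genes were called higher than in wild type and 8.67% higher than in vector. Among the 10 neighbours, 3 were called higher by limma in Q311E than in wild type and 2 higher than in vector. SOWAHB, named after its values were seen, gave the largest of these differences, 1.20 over wild type and 0.70 over vector.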

How the data were processed

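RNA of 6 libraries was measured, 2 in each of 3 lines. The authors deposited FPKM values for 30178 human Ensembl gene IDs. Per the labels' protocols, RNA was prepared with QIAGEN material and sequencing libraries by standard Illumina methods. CASAVA and 2 mouse builds, mm8 and mm9, appear without a role per the submitters' processing notes, although the IDs are human. The aligner and counting tool were not given in the sources used here, nor was strand use. A table of gene names matched 29993 IDs, and GENCODE 29 on GRCh38 gave positions and lengths.

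Because low FPKM values are steps of 1 read, whole reads were recovered for 30030 genes (99.51%, tolerance 0.001 reads). Of the 10 chemokine genes, 5 had exactly the GENCODE 29 length, and the length of the other 5 was fitted. The 3 groups were fitted jointly to log2(FPKM + 1) by limma 3.58.1 (R 4.3.3; trend in the variance prior, 3 residual degrees of freedom, two-sided, Benjamini-Hochberg adjustment over the 11481 genes with a mean of at least 1 FPKM), a procedure tested on simulated data. Errors of FPKM are SDs over 2 libraries and errors of log2 differences are SEs. Promoter sequences came from RefSeq on GRCh38.p14.

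The chemokine genes and all gene lists were chosen with earlier results of these data known. Named genes are the 10 chemokines, up to 3 called genes per list and comparison by smallest adjusted p (if none, the most abundant), the 5 genes nearest to CXCL14, and MB21D2. The text prints a selection of the listed genes so named, and gives a gene named in 1 comparison (IL1A, STING1) its values in the others too. CXCR2, ACKR3 and SOWAHB fall outside the rule. In all, 16 alternatives were run, among them pseudocounts, filters, scalings, limma-voom on recovered reads and each library left out.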

Additional observations from a re-analysis of the deposited data

How the results depend on the processing

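CXCL14 kept its order of groups under all 16 alternatives. Its log2 difference, 4.73 between Q311E and vector and 3.10 between wild type and vector as reported, was 6.17 and 4.46 with a pseudocount of 0.1, 5.35 and 3.67 with 0.5, 5.78 and 4.12 under TPM scaling and 6.45 and 4.73 with limma-voom on recovered reads. A smaller pseudocount enlarges differences of a gene that is low in 1 group by construction. With limma-voom, Q311E minus wild type was 4.51 for CXCL10 and 4.80 for CXCL11, and wild type minus vector −2.45 and −3.21. Of 30 differences of the 10 chemokine genes, 5 changed sign under some alternative, each by leaving out 1 library: besides those given above, CXCL2 between wild type and vector was −0.11 without wild type B and −0.12 without vector A, against 0.02 as reported.

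Counts of calls moved more. With no filter on low values, 1608 genes were called between Q311E and wild type, 1210 between Q311E and vector and 393 between wild type and vector, against 3162, 2061 and 1412 as reported. Listed genes called then numbered 8 between Q311E and vector and 4 between wild type and vector, against 17 and 12. Chemokines of the 10 called were 3 between Q311E and wild type and 1 between wild type and vector, against 5 and 5. In fits of the 2 groups compared alone, calls numbered 973, 262 and 5273 in that order of comparisons, listed genes 13, 1 and 42 (28, 17 and 12 as reported), and the 10 chemokines 3, 2 and 9 (5, 4 and 5 as reported). Of the 13 named calls between Q311E and vector, 12 were then lost (limma adjusted p 0.058 to 0.113), STAT2 excepted. Between Q311E and wild type 8 of 20 were lost (BIRC3, IFNGR2, IRF3, IRF7, KHSRP, STING1, TRAF6 and UHRF1, limma adjusted p 0.051 to 0.0947). Between wild type and vector 0 of 12 were lost. A fit of 2 groups takes its spread from those 2 alone, where the joint fit pools all 3 groups. The SD over genes of the log2 difference between A and B was 0.436 in Q311E, 0.145 in wild type and 0.192 in vector. The cause of the moved counts was not tested.

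Leaving out 1 library at a time gave 0 to 6961 calls between Q311E and wild type, 3 to 5683 between Q311E and vector and 7 to 5262 between wild type and vector. Listed genes called ranged over 0 to 60, 0 to 51 and 0 to 42, and the 10 chemokines over 0 to 10, 1 to 10 and 1 to 9. The lone library of a group was then taken to vary like the others. The highest counts came without Q311E A or Q311E B, the lowest without a wild type or vector library.

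The labels do not say whether the letters A and B pair the samples. Differences between A and B correlated across genes at −0.00613 for Q311E with wild type and −0.0255 for wild type with vector. For Q311E with vector the correlation was 0.387, so these 2 lines shared part of that difference. With a replicate block, 3264, 1942 and 1299 genes were called, and the named calls of TRAF6 between Q311E and wild type (adjusted p = 0.0505) and IRF3 between wild type and vector (0.0517) were lost. TPM scaling ended 2 of 20 named calls between Q311E and wild type (TRAF6 and UHRF1), 3 of 13 between Q311E and vector (HNRNPD, RELB and ZFP36L1) and 3 of 12 between wild type and vector (IRF3, TRAF2 and ZFP36L1). Quantile normalization ended those of TRAF6 between Q311E and wild type (0.0648) and IRF3, and median scaling that of IRF3. Genes under about 1 FPKM rest on few reads, which limits CXCL14 in vector and CXCL10 and CXCL11 in wild type.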
